A study of Mus musculus with 16 samples.

Results

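The genes described here are 9 homeobox factors that newly born neurons of the spinal cord switch on, namely Isl1, Mnx1, Lhx1, Lhx3, Lhx5, Lhx9, Pou4f1, Tlx3 and Lbx1. They were chosen by name from the 27807 genes of the table, and all 9 were found, each under 1 identifier. They were followed in 16 poly-A RNA libraries of mouse embryonic stem cells (ES) and of embryoid bodies, which are floating aggregates of differentiating ES cells. The libraries fell into 8 groups of 2, a wild-type group (WT, labelled Taf4+/+) and a mutant group (KO, labelled Taf4a-/- or Taf4-/-) at each of 4 stages. These were ES cells, embryoid bodies before retinoic acid (EB4), embryoid bodies after the first day of retinoic acid (EB5), and embryoid bodies later in the treatment (EB8), which the labels call neural precursor cells.

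Taf4a encodes Taf4, which belongs to the core of TFIID, the complex through which the TATA-binding protein reaches most promoters. The lines came from blastocysts of heterozygous crosses, 2 independent lines of each genotype, and the KO lines are homozygous for a null allele. The ES cells were grown on inactivated embryonic fibroblast feeders with LIF, and the dose of retinoic acid was not given in the sources used here. Replicates are thus taken as separate lines. The p-values rest on the spread between the 2 libraries of a group, pooled for each gene over all groups, and not on the compared groups alone. The lines of a genotype would then recur at each stage, but the main fit counts their libraries as independent.

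As the neural tube forms, progenitors along its dorsoventral axis are set apart by combinations of transcription factors, and the neurons that leave each domain turn on their own homeobox genes. Isl1, Mnx1 and Lhx3 are known for their part in motor neuron identity. Lhx1, Lhx5 and Lbx1 mark interneurons, many of them inhibitory, while Tlx3, Pou4f1 and Lhx9 mark excitatory dorsal interneurons or sensory neurons. Isl1, Lhx1, Lhx3, Lhx5 and Lhx9 carry LIM domains, through which they bind the adaptor Ldb1. Several of the factors also act outside the nervous system, Isl1 in heart progenitors, Mnx1 in the pancreas and notochord, and Lhx1 in the axial mesoderm and kidney.

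Values are normalised read counts, that is reads scaled by 1 factor for each library. The depth ran from 22442118 to 27685306 reads in the embryoid body libraries and from 32631020 to 40711826 in the ES libraries, so that stage and depth moved together for ES cells. With limma on log2(normalised count + 1), fitted over all 16124 genes with a mean of at least 10, a gene is called here when its Benjamini-Hochberg adjusted p is under 0.05. Taf4a itself had 1590.9 to 1959.6 normalised counts in the WT libraries and 1972.8 to 2400 in the KO libraries and was called at none of the stages. The authors describe the null allele as a deletion of some exons of the gene, so reads from its other exons can still be counted. A count over the whole gene does not show which exons were read. It is thus no check of the genotype, and WT and KO name the labels throughout. At EB8 the 6 matched neural progenitor markers summed to between 27541 and 28814 normalised counts in WT and between 8452 and 10669 in KO. The 6 markers of ES cells summed to between 1283 and 1520 in WT EB8 and between 18934 and 20801 in KO EB8. Both KO EB8 libraries, which carry the same label of neural precursor cells, thus had a lower neural and a higher ES sum than both WT EB8 libraries. The neural sum is not particular to neural cells. It was 17492.4 to 18403.6 in WT ES and 16632.1 to 20588.5 in KO ES, above KO EB8. Genes with many reads weigh most in such sums. Sox2 and Nes of the neural list and Klf4 of the ES list were not called (log2 changes 0.15, -1.63 and 0.65, limma adjusted p 0.697, 0.0582 and 0.448). The authors count Sox2 among the pluripotency markers of ES cells.

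On the NCBI37 build, Mnx1 (ENSMUSG00000001566) lies on chromosome 5 from 29799578 to 29805059, and Lhx5 (ENSMUSG00000029595) on the same chromosome from 120881895 to 120891466. Lhx1 (ENSMUSG00000018698) lies on chromosome 11 from 84331479 to 84338923, and Tlx3 (ENSMUSG00000040610) on chromosome 11 from 33100752 to 33103588. Isl1 (ENSMUSG00000042258) is on chromosome 13 from 117088478 to 117099896, Lhx3 (ENSMUSG00000026934) on chromosome 2 from 26055732 to 26063769, and Lbx1 (ENSMUSG00000025216) on chromosome 19 from 45307178 to 45310301. Pou4f1 (ENSMUSG00000048349) is on chromosome 14 from 104862737 to 104867216, and Lhx9 (ENSMUSG00000019230) on chromosome 1 from 140721763 to 140745153. Lhx5 is on the plus strand and the other 8 are on the minus strand. All are protein coding, with 2 (Lbx1) to 9 (Lhx9) separate exon blocks, and none overlaps another gene of the table.

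TFIID acts at promoters, so the start regions of Mnx1 and Lhx1, which differed between genotypes at EB8, are shown beside that of Pou4f1, which was not called. The sequences are RefSeq windows of 250 bases before to 50 bases after the start, on build GRCm38.p6 and the minus strand, written 5′ to 3′ along the gene (Mnx1 chr5:29478421-29478720, Lhx1 chr11:84525485-84525784, Pou4f1 chr14:104467950-104468249). Capitals mark matches to a GC box (GGGCGG) or a CCAAT box (CCAAT) on either strand, which in Pou4f1 are a pair that overlaps.
Mnx1: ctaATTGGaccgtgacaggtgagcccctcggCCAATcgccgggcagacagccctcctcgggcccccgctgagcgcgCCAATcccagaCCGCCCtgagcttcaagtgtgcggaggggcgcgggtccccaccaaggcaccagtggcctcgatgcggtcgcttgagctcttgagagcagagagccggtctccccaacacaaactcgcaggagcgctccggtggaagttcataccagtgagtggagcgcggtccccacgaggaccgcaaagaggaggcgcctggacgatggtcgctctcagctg
Lhx1: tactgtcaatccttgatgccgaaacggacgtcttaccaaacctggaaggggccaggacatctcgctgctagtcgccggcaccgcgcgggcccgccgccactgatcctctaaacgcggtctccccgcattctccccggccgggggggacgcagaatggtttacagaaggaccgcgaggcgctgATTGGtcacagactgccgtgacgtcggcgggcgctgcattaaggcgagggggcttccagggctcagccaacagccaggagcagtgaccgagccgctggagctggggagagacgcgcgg
Pou4f1: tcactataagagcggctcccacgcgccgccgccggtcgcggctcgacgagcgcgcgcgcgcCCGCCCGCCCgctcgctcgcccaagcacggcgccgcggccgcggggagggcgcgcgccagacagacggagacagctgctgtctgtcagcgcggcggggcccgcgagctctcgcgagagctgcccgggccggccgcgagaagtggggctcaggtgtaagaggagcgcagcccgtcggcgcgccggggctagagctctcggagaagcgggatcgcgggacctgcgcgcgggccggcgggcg
The RefSeq table held 8 windows for 7 of the 9 genes, with 2 starts for Lhx3. None of the 3 windows printed holds the letters TATAAA on either strand, and of all 8 windows only the more upstream start of Lhx3 does. Of 32851 mouse promoter windows of that length, 13.6% hold TATAAA, 35.7% GGGCGG and 37.4% CCAAT. The windows of Lhx1, Mnx1 and Pou4f1 hold 31, 26 and 57 CpG dinucleotides, where the median mouse window holds 7. A match is a description of the letters only, and its absence says nothing about TFIID at these genes.

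**Figure D1:**
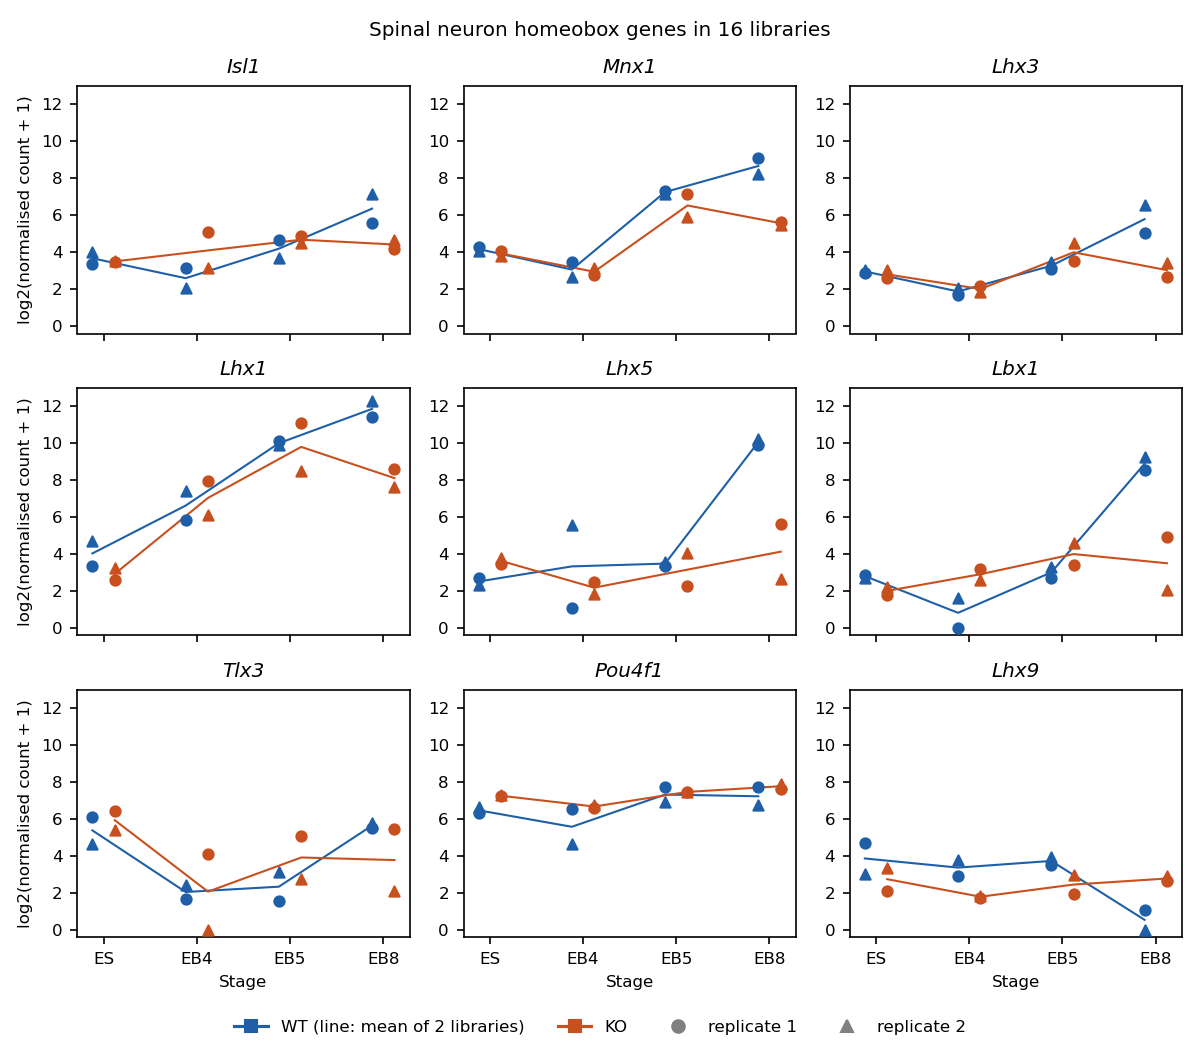
Each panel plots 1 gene as log2(normalised count + 1) against stage, with WT in blue, KO in orange, circles for replicate 1 and triangles for replicate 2, and lines through the mean of the 2 libraries of a group. Lhx5 and Lbx1 rise steeply between EB5 and EB8 in WT, the means of Mnx1 and Lhx1 are already higher at EB5 than at EB4 in both genotypes, and Pou4f1 lies between 23.6 and 237.5 normalised counts throughout.

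At EB8, 5 of the 8 genes that could be tested were lower in KO than in WT and none was higher. These were Mnx1, Lhx1, Lhx3, Lhx5 and Lbx1, with log2 changes from -5.93 to -2.76. Of all genes tested, 12.5% were called lower and 10.4% higher in KO at EB8. Lhx9, with a mean of 7.23 normalised counts, was not tested. Lhx3 and Lbx1 reached the required mean only through the WT EB8 libraries, without which their means were 7.23 and 8.10, so the number of called factors is a description and not support for a trend among them. In these bulk samples, fewer cells of a type and less RNA per cell cannot be told apart.

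Mnx1, a factor that holds motor neurons to their identity, reached 554.5 and 297.5 normalised counts in WT EB8, while KO EB8 held 49.6 and 43.7. Both KO libraries were far below both WT libraries, at 10.9% of the WT mean. The log2 change was -3.10 ± 0.50 (SE, limma adjusted p 0.00115). It was called in each of the alternative analyses run, with adjusted p from 8.88e-09 to 0.0152.

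Isl1, the LIM factor that acts with Lhx3 in motor neurons, reached 46.2 and 141.9 normalised counts in WT EB8, while KO EB8 held 16.9 and 24.5. The groups did not overlap, but the 2 WT libraries differed more from each other than the lower of them did from KO. Its log2 change of -1.94 (95% interval -3.55 to -0.33) did not pass over all genes (limma adjusted p 0.078), while limma with a pseudocount of 5 (adjusted p 0.049) and DESeq2 on the recovered reads called it (adjusted p 0.0314, range over the alternatives 0.0314 to 0.419).

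Lhx3 reached 31.5 and 93.2 normalised counts in WT EB8, while KO EB8 held 5.3 and 9.6. As for Isl1, WT replicate 2 was the higher library, whereas for Mnx1 it was WT replicate 1. The log2 change was -2.76 ± 0.64 (SE, limma adjusted p 0.00908). The KO values rest on 5 and 9 reads. The call was lost without WT EB8 replicate 2 (adjusted p 0.0955), without KO EB8 replicate 1 (0.0715) and in a fit of the EB8 libraries alone (0.0521).

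Lhx1, a LIM factor of several interneuron classes, stood at 2730.3 and 5042.9 normalised counts in WT EB8, while KO EB8 held 386.2 and 196.0. The KO libraries were at 7.49% of the WT mean, and still well above the floor of detection. The log2 change was -3.75 ± 0.86 (SE, limma adjusted p 0.00827). Without WT EB8 replicate 2 the adjusted p was 0.07 and without KO EB8 replicate 2 it was 0.0611, at log2 changes of -3.31 and -3.26.

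Lhx5, the close relative of Lhx1 in the same interneurons, reached 960.9 and 1184.8 normalised counts in WT EB8, while KO EB8 held 47.5 and 5.3. The WT libraries were alike, while KO replicate 1 was far above KO replicate 2. The log2 change was -5.93 ± 1.24 (SE, limma adjusted p 0.00507), and -4.46 without KO EB8 replicate 2 (adjusted p 0.051). This was the greatest fall of the tested factors on the log2 scale.

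Lbx1, a selector of dorsal interneurons, reached 369.6 and 598.2 normalised counts in WT EB8, while KO EB8 held 29.5 and 3.2. As for Lhx5, KO replicate 1 held more than KO replicate 2, in which 3 reads were found. The log2 change was -5.38 ± 0.88 (SE, limma adjusted p 0.00121), and it was called in each of the alternative analyses, with adjusted p from 3.9e-08 to 0.0157.

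Tlx3, which is known for setting the excitatory fate of dorsal neurons and for opposing Lbx1, reached 44.1 and 54.0 normalised counts in WT EB8, while KO EB8 held 43.3 and 3.2. KO replicate 1 was close to WT, and KO replicate 2, with 3 reads, was at the floor. The log2 change of -1.87 had a 95% interval from -4.80 to 1.06 (limma adjusted p 0.348), so these libraries do not settle its direction. For Tlx3, Lhx5 and Lbx1 alike, the KO library with the higher value was replicate 1. The same held for Lhx1 and Mnx1, while for Isl1, Lhx3 and Pou4f1 it was replicate 2.

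Pou4f1, a POU factor of sensory neurons and dorsal excitatory interneurons, reached 210.0 and 104.8 normalised counts in WT EB8, while KO EB8 held 198.4 and 237.5. The groups overlapped, and the log2 change was 0.55 with a 95% interval from -0.61 to 1.71 (limma adjusted p 0.5). An equal level is within that interval, and so is a KO level above that of WT, but falls of the size measured for Lhx5 or Lbx1 lie outside it.

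Lhx9, which marks the most dorsal spinal interneurons, had 1.1 and 0 normalised counts in WT EB8 (1 and 0 reads) and 5.3 and 6.4 in KO EB8 (5 and 6 reads). Both WT libraries were at the floor of 3 reads. Over the 16 libraries it never exceeded 24.6 normalised counts, a value seen in WT ES replicate 1. No fold change is given at these counts. With no filter on low values, limma called Lhx9 lower at EB8 than at EB5 in WT (adjusted p 0.0263), from 10.4 and 14.3 normalised counts.

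In 7 of the 8 tested genes, all but Pou4f1, both KO libraries were below both WT libraries at EB8, an arrangement that 33.5% of all tested genes showed. For Tlx3 the nearest libraries, KO replicate 1 and WT replicate 1, held 41 and 42 reads. The median log2 change of the 8 was -2.93, beside -0.03 for all tested genes. Lhx3 and Lbx1 were tested only because they are high in WT EB8, so the count of 7 and this median are descriptions. The counts of called factors at EB8 ranged from 4 to 6 over the alternative analyses and from 3 to 5 when a library was left out.

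**Figure D2:**
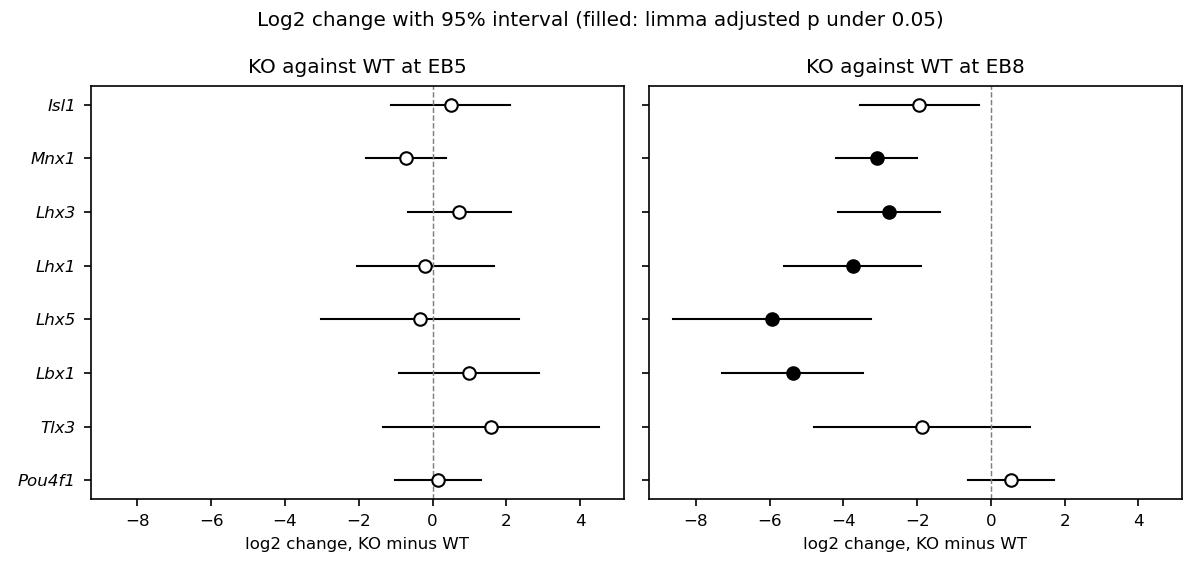
The log2 change of each tested gene (KO minus WT, x axis) is plotted with its 95% interval at EB5 (left) and EB8 (right), and filled points are called by limma. All intervals include 0 at EB5, whereas 5 genes are called at EB8, from -5.93 for Lhx5 to -2.76 for Lhx3.

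Before EB8 none of the factors was called between genotypes. At ES, EB4 and EB5 limma called 0 of the 8, as did edgeR and DESeq2 on the recovered reads. Of all tested genes, limma called 0% at ES, 6.12% at EB4 and 4.34% at EB5, and DESeq2 2.95%, 12.9% and 10.7%. At an unadjusted limma p under 0.05 there were 0, 1 (Lbx1) and 0 of the 8, beside 11.4%, 22.7% and 20.7% of all tested genes. With 8 genes, such low counts are not a result about the factors. At EB4 Lbx1 was at 0 and 2.1 normalised counts in the WT libraries, while KO held 8.2 and 5.1, at most 7 reads in a library.

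The EB4 to EB5 step spans the first day of retinoic acid. No EB5 library lacked the treatment, so retinoic acid and a further day of culture cannot be told apart, here or from EB5 to EB8. Mnx1 rose from 9.9 and 5.4 normalised counts to 160.9 and 143.9 in WT, and from 5.8 and 7.7 to 141.3 and 59.2 in KO. The groups were far apart in both genotypes. In WT the log2 change was 4.20 ± 0.50 (SE, limma adjusted p 0.000479) and in KO it was 3.59 with the same standard error (limma adjusted p 0.00217). The difference between these changes was not called (log2 difference -0.62, limma adjusted p 1), with a 95% interval from -2.16 to 0.92. A fit of the KO EB4 and EB5 libraries alone lost the call in KO (adjusted p 0.088).

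Lhx1 rose in WT from 55.9 and 169.4 normalised counts at EB4 to 1106.6 and 944.4 at EB5. In KO it had 251.2 and 67.6 at EB4 and 2161.7 and 366.5 at EB5. The highest and the lowest EB5 library were both KO, so that the KO replicates enclosed the WT values. The log2 change was 3.38 in WT (limma adjusted p 0.0497) and 2.76 in KO (limma adjusted p 0.122), and the difference between them was not called (limma adjusted p 1). That difference was called for none of the factors by limma, edgeR or DESeq2, beside 0%, 0% and 0.0248% of all tested genes. None of the 8 had an unadjusted limma p under 0.05 for it, beside 2.96% of all tested genes. The WT call was at the edge of the threshold and was lost in 7 of the alternative analyses, among them edgeR (adjusted p 0.0701), while DESeq2 kept it. It was also lost without WT EB4 replicate 1 (adjusted p 0.367), WT EB5 replicate 1 (0.18) or WT EB5 replicate 2 (0.222). In KO, DESeq2 called the change (adjusted p 0.0294), as did limma with the replicate number as a block within genotype (adjusted p 0.0369), which pairs libraries of a number across stages.

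Of the 8 tested factors, 2 were thus called higher at EB5 than at EB4 in WT, beside 2.59% of all tested genes, and 1 in KO, beside 1.82%. Of the factors that were not called at this step, Pou4f1 had 91.0 and 23.6 normalised counts at EB4 and 209.8 and 119.7 at EB5 in WT. In KO it had 95.8 and 105.9 at EB4 and 174.5 and 175.5 at EB5. The EB5 libraries were above the EB4 libraries in both genotypes, with a log2 change of 1.75 in WT (limma adjusted p 0.109) and 0.79 in KO (limma adjusted p 0.517). With the block within genotype the WT change was called (limma adjusted p 0.0381). Over the same step 9 general markers of neurons had a median log2 change of -0.59 in WT and -0.39 in KO. Their sum in WT was 6411 to 7306 normalised counts at EB4 and 2484 to 3761 at EB5. In KO it was 4213 to 5635 and 2786 to 3890. The rise of Mnx1 and Lhx1 at EB5 thus came without a rise of these markers, and the cells that held their RNA were not tested.

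The EB5 to EB8 step covers the later part of the retinoic acid treatment. In WT, 3 of the 8 factors were called higher at EB8 than at EB5, namely Lhx5, Lbx1 and Lhx3, and none of the 8 lower, beside 5.82% of all tested genes called higher and 4.62% called lower. Lhx5 went from 9.4 and 11.0 normalised counts at EB5 to 960.9 and 1184.8 at EB8, which is 6.58 on the log2 scale (limma adjusted p 0.00566). Lbx1 went from 5.6 and 8.8 to 369.6 and 598.2, which is 5.87 on the log2 scale (limma adjusted p 0.00161). Lhx3 went from 7.5 and 9.9 to 31.5 and 93.2, which is 2.52 on the log2 scale (limma adjusted p 0.0263). These 3 genes were near the floor at EB5, unlike Mnx1 and Lhx1. Lhx3 and Lbx1 reached the required mean only through the WT EB8 libraries, with means of 7.23 and 8.10 without them. They were thus tested because they are high in WT EB8, so the count of 3 is a description and not support for a trend. The Lhx3 call was lost in the fit of only these groups (adjusted p 0.0948) and without WT EB5 replicate 1 (0.159), WT EB5 replicate 2 (0.0685) or WT EB8 replicate 2 (0.226).

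In WT, Tlx3 had 1.9 and 7.7 normalised counts at EB5 and 44.1 and 54.0 at EB8 (log2 change 3.32, limma adjusted p 0.149), and the block within genotype called the change (limma adjusted p 0.0225). Isl1 went from 24.5 and 12.1 to the values above (log2 change 2.17, limma adjusted p 0.0862), and Mnx1 and Lhx1 had log2 changes of 1.41 and 1.86 (limma adjusted p 0.0975 and 0.202). A fit of only these groups called Lhx1 (limma adjusted p 0.0243). DESeq2 called Isl1 and Mnx1 in addition to the 3 named before (adjusted p 0.0313 and 0.0195), beside 8.66% of all genes called higher by that tool. Both WT EB8 libraries were above both WT EB5 libraries for 7 of the 8 tested factors, all but Pou4f1, an arrangement found in 28.6% of all tested genes. Lhx3 and Lbx1, tested only because they are high in WT EB8, are among the 7, so this count too is a description.

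In KO the same step gave no call among the 8 factors with limma, edgeR or DESeq2, and none had an unadjusted limma p under 0.05. Of all tested genes, limma called 0.428% higher and 0.31% lower, DESeq2 called 4.1% and 12.8% had an unadjusted limma p under 0.05, so with 8 genes the absence of calls is not a result about the factors. Mnx1 went from 141.3 and 59.2 normalised counts at EB5 to 49.6 and 43.7 at EB8 (log2 change -0.96, 95% interval -2.05 to 0.13). Lhx1 went from 2161.7 and 366.5 to 386.2 and 196.0 (log2 change -1.69, 95% interval -3.55 to 0.17). The groups of Mnx1 did not overlap, with EB8 lower, and those of Lhx1 did.

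The difference between genotypes in the EB5 to EB8 change was called for 1 factor, Lbx1, beside 0.682% of all tested genes called with a smaller change in KO. Like Lhx3, Lbx1 reached the required mean only through the WT EB8 libraries. Its change was 5.87 in WT and -0.49 in KO on the log2 scale, a difference of -6.36 ± 1.24 (SE, limma adjusted p 0.0373). The call was lost when any of 7 of the 8 libraries was left out, and the adjusted p ranged from 7.08e-05 to 0.175 over the alternatives. For Lhx5, Lhx1, Lhx3, Mnx1 and Isl1 the differences were -5.60, -3.55, -3.49, -2.37 and -2.43, with limma adjusted p of 0.212, 0.283, 0.122, 0.187 and 0.461. Each of these 5 had a 95% interval below 0 before adjustment, and DESeq2 called Mnx1, Lhx3, Lhx5 and Lbx1 (adjusted p 0.0137, 0.0496, 0.022 and 7.08e-05), beside 2.2% of all genes with a smaller change in KO by that tool.

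Levels of different genes can be set side by side only per length. At EB8 in WT, normalised counts per kb of exon were 663 and 1224 for Lhx1, 351 and 433 for Lhx5, 149 and 241 for Lbx1 and 242 and 130 for Mnx1. Pou4f1 had 74.3 and 37.1, Isl1 18.3 and 56.2, Tlx3 28.8 and 35.3 and Lhx3 10.5 and 31.0. The interneuron genes Lhx1 and Lhx5 thus led, and the ranges of Lbx1 and Mnx1 overlapped, as did those of Pou4f1 and Isl1, and of Isl1, Tlx3 and Lhx3. In KO EB8 the order of the means per kb was led by Pou4f1 (70.1 and 84.0) and Lhx1 (93.7 and 47.6), whose ranges overlapped.

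**Figure D3:**
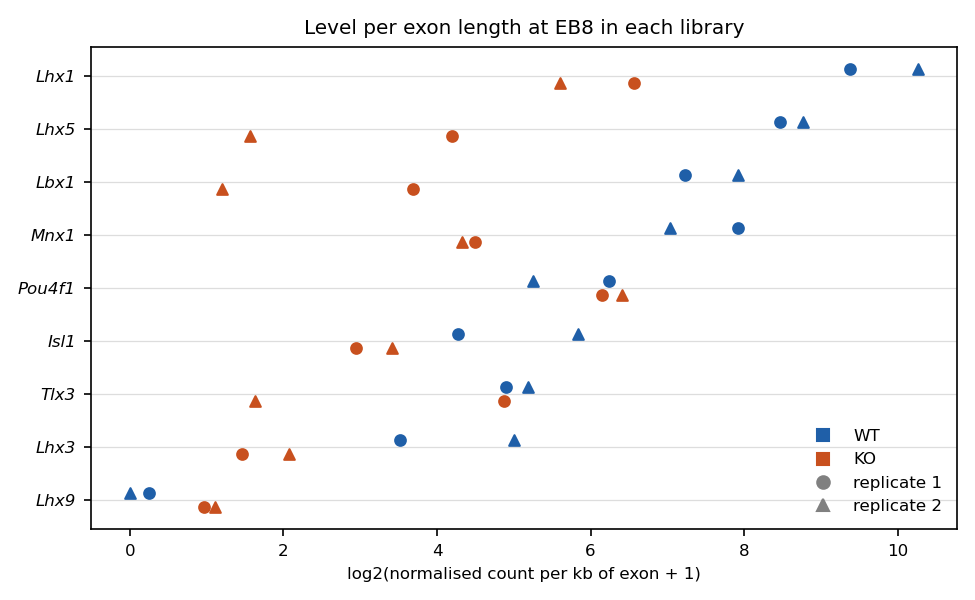
Each row is 1 gene, with its level at EB8 in each library as log2(normalised count per kb of exon + 1) on the x axis, WT in blue and KO in orange, circles for replicate 1 and triangles for replicate 2. WT values lie to the right of KO values for every gene but Pou4f1, where they overlap, and Lhx9, which is at the floor in WT.

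Some of the genes were detected before any neural stage. Tlx3 had 68.3 and 23.9 normalised counts in WT ES and 86.3 and 41.5 in KO ES, and fell to between 0 and 16.4 in the EB4 libraries. Its ES values overlapped those of WT EB8, so in WT its course fell and then rose again. Pou4f1 had 78.3 and 97.3 in WT ES and 148.6 and 154.4 in KO ES (log2 change 0.79, limma adjusted p 0.624). Neither gene was called between genotypes at ES, and the other 7 had at most 25.5 normalised counts in any ES library.

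Lhx1 and Tlx3 lie on chromosome 11. There the median gene was 0.18 to 0.25 above the mean of its stage (log2 scale) in KO replicate 1 at the 4 stages, and between -0.09 and -0.02 in the other 12 libraries. On the other 6 chromosomes that carry these genes the range was -0.10 to 0.12. The part of this in the values of Lhx1 and Tlx3 in KO replicate 1 was not tested.

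The genes whose course was most like that of each factor were found by Pearson's r of log2(normalised count + 1) over the 16 libraries, which share genotype, stage and depth. For Mnx1 these were Skap2 (r = 0.964) and Foxa1 (0.960), a forkhead factor of the floor plate and endoderm. For Lhx1 they were Gas7 (0.959) and Nxph4 (0.952), for Lhx5 the neuronal splicing regulator Nova2 (0.951) and Klc1 (0.926), a kinesin light chain, and for Lbx1 the adhesion molecule Cadm4 (0.954) and Scrt2 (0.931). Isl1 was nearest to the proneural factor Neurog1 (0.860) and to Slc32a1 (0.846), the vesicular transporter of inhibitory transmitters, and Lhx3 to Ebf2 (0.920) and Disp2 (0.917). Pou4f1 was nearest to Necab1 (0.852) and Gm15055 (0.832), and Tlx3 to Sgta (0.874) and Mrpl52 (0.852). Among pairs of the factors themselves r was highest for Lhx5 and Lbx1 (0.879) and lowest for Lhx1 and Tlx3 (-0.102).

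Of 26 other factors of postmitotic spinal and hindbrain neurons, 18 were tested, and at EB8 7 were lower and none higher in KO, with a median log2 change of -1.46 (-1.30 with genes at or under 3 reads in both KO libraries set to that floor). Beside the 12.5% of all tested genes called lower, 1 of the 7 (Sim1) reached the required mean only through WT EB8. Pax2, which marks inhibitory interneurons, reached 926.2 and 1505.6 in WT, while KO held 184.6 and 82 (log2 change -3.25, limma adjusted p 0.025). Onecut1, Pax8, Bhlhe22 and Sim1 had log2 changes of -3.87, -3.84, -3.68 and -3.43. In WT, 6 of the 18 were called higher at EB8 than at EB5, beside 5.82% of all tested genes. In KO none was, beside 0.428%. Of the 18, 2 reached the required mean only through WT EB8, so the count of 6 is a description.

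Of 10 cofactors of LIM proteins, all were tested, and 2 were lower and none higher in KO EB8, with a median log2 change of -0.94. With 12.5% of all tested genes called lower, 2 of 10 is near the background, and 1 of the 2 (Lmo3) reached the required mean only through WT EB8. Lmo3, a LIM-only protein, had 83 and 114.3 normalised counts in WT EB8, and KO EB8 held 0 and 1 read (log2 change -6.10, limma adjusted p 0.000176). Ssbp2, a partner of Ldb1, reached 972.4 and 964.5 in WT, while KO held 405.1 and 558.2 (log2 change -1.02, limma adjusted p 0.0129). Its lower KO level was not particular to EB8. At ES WT had 328.6 and 316.5 and KO 107.1 and 171.5, at EB4 511.8 and 640.2 against 216.1 and 194. At EB5 WT had 733 and 686.3 and KO 311.9 and 279.3. Of the 10 cofactors, 1 was called lower at EB4 and 2 at EB5, beside 6.12% and 4.34% of all tested genes called in either direction. Ldb1 itself was not called.

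The progenitor factors that precede the 9 genes in the neural tube come next. Of 20, 17 were tested, and at EB8 14 were lower and none higher in KO, with a median log2 change of -4.05 (-3.83 with such genes set to the floor). Of all tested genes, 12.5% were called lower. Of the 14, 4 (Nkx6-1, Dbx2, Neurog2 and Ptf1a) reached the required mean only through WT EB8 and so had to be high there. Of the 13 tested genes that did not depend on it, 10 were lower. At EB5, 3 of the 17 progenitor factors were lower in KO, beside 350 of all 16124 genes tested. None of the 8 tested homeobox factors was called there, which with so few genes is not a result about them. The difference between the lists was not tested. Neurog2, a proneural factor, reached 830.6 and 552.7 normalised counts in WT EB8, while KO EB8 held 5.3 and 2.1 (log2 change -7.26, limma adjusted p 0.000452). Dbx1, a factor of ventral interneuron progenitors, reached 4360.1 and 3448.4 in WT, and KO held 0 and 2 reads.

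Of the genes that neurons use for their transmitter, 8 of 9 were matched and 6 tested, and at EB8 4 were lower and none higher in KO. These were Gad1, Gad2, Slc32a1 and Slc6a5, which serve GABA or glycine. The remaining tested genes, Slc17a7 for glutamate and Slc5a7 for acetylcholine, were not called (log2 changes 1.48 and 0.81, limma adjusted p 0.113 and 0.615). Slc17a6, another glutamate transporter, was not tested, so the list cannot show a loss particular to inhibitory genes. Slc6a5 reached the required mean only through WT EB8. Slc6a5, the neuronal glycine transporter, reached 277.2 and 555.9 normalised counts in WT EB8, while KO EB8 held 5.3 and 7.5 (log2 change -5.76, limma adjusted p 0.000548). Of 9 general markers of neurons, all tested, 9 were lower in KO EB8, with a median log2 change of -4.06. The counts of transmitter genes and neuron markers stand beside 12.5% of all tested genes called lower at EB8. Dcx, a microtubule protein of young neurons, had 4946 and 6972 against 61.2 and 88.4. The 5 called homeobox factors were thus lower in libraries in which neuron markers were lower too, and the part of a smaller share of neurons in their values was not tested.

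**Figure D4:**
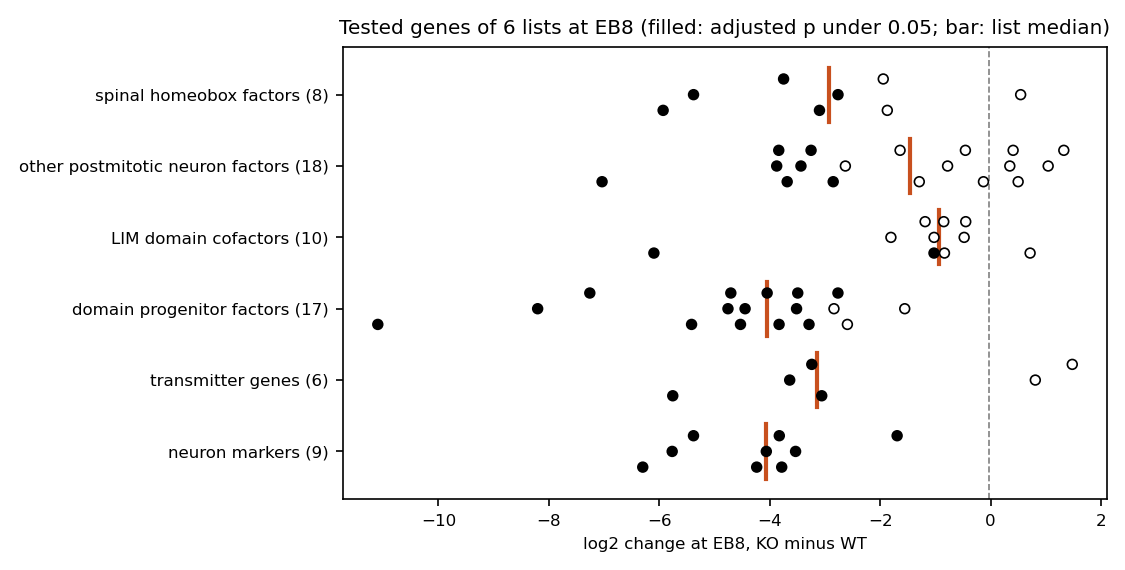
Each point is a tested gene of a list, with its log2 change at EB8 (KO minus WT) on the x axis, filled where called by limma, the orange bar at the median of the list and the dashed line at the median of all tested genes (-0.03). The medians run from -4.06 for neuron markers to -0.94 for LIM cofactors, with -2.93 for the spinal homeobox factors.

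Markers of other tissues in which these factors act were read in the same libraries. Of 7 heart field markers, which bear on Isl1, 5 were tested and none was called at EB8, and their sum was 479.9 to 481.7 normalised counts in WT and 382 to 818 in KO. Of 8 markers of mesendoderm and axial mesoderm, which bear on Lhx1 and Mnx1, 7 were tested. Eomes was higher in KO EB8 (log2 change 4.51), and Foxa2 and Sox17 were lower (-3.46 and -2.68), while Noto was at the floor in both genotypes. Their sum was 913 to 970 in WT and 566 to 629 in KO. Of 7 pancreas and kidney markers, 5 were tested and Ptf1a, which reached the required mean only through WT EB8, and Osr1 were lower in KO, with a sum of 1828 to 2616 in WT and 1221 to 2171 in KO, and the pancreas markers Pdx1 and Ins2 were at the floor in WT EB8. Of all tested genes, 12.5% were called lower and 10.4% higher in KO at EB8. The part of such heart, axial, pancreas or kidney cells in the values of the 9 genes was not tested.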

How the data were processed

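Per the labels, poly-A libraries were sequenced as single-end reads. The authors aligned them to mm9 (NCBI37) with TopHat and took normalised expression from DESeq2. Their processing notes name TopHat2 2.0.10, HTSeq 0.5.4p3 and DESeq2 1.0.19, and the annotation release and use of strand are not given in the sources used here. The signal the authors deposited is a normalised read count, scaled by 1 factor for each library. In each library 100% of values were whole multiples of a step of 0.715 to 1.28 normalised counts (tolerance 0.001), which gave whole reads. The floor of 3 reads covers counting error only.

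limma 3.58.1 (R 4.3.3; eBayes with trend) was run on log2(value + 1), with a mean for each of 8 groups over all 16 libraries (8 residual and 4.28 prior degrees of freedom), on 16124 genes. This scale understates the change of low genes. Intervals are for single genes, unadjusted. As alternatives, the recovered reads were given to edgeR 4.0.16 (quasi-likelihood test) and DESeq2 1.42.0. Gene positions are from GENCODE M1 (27603 identifiers found, 204 not), and promoters from RefSeq. Symbols missing from the table were looked up by identifier or older name (Map2 as Mtap2), and Slc18a3 and Sox1 stayed unmatched and are not analysed here. The fit was tested on simulated data.

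The 9 genes and the lists were chosen with earlier results of these data known. Named genes are the 9 and, from each other list, at most 6 called at EB8 with the greatest absolute log2 change. A gene that this rule would name is not reported here. The 2 most correlated genes are given for each tested factor. Ldb1, Noto, Pdx1, Ins2, Slc17a7, Slc5a7, Slc17a6, Sox2, Nes and Klf4 were named after their values were seen. Alternatives were other pseudocounts, filters, scalings, tests and sets of libraries, and the replicate number as a block. The labels do not say that a number marks a line across groups. The correlation of replicate differences between WT and KO was 0.335 at ES, -0.058 at EB4, -0.209 at EB5 and -0.133 at EB8, so across genotypes the block is an alternative only. Within a genotype it was 0.523 to 0.605 between the WT and 0.233 to 0.422 between the KO embryoid body stages, so numbers pair those libraries, and values with the block within genotype are given where they change a call.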

Additional observations from a re-analysis of the deposited data

Results flagged for a closer look

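The EB5 to EB8 change of Lbx1 differed between genotypes by the test of the difference itself (limma interaction term, log2 difference -6.36, adjusted p 0.0373). In WT both EB8 libraries (369.6 and 598.2 normalised counts) were far above both EB5 libraries (5.6 and 8.8). In KO, replicate 1 had 9.5 at EB5 and 29.5 at EB8, and replicate 2 had 23.3 and 3.2. Lbx1 reached the mean needed for testing only through the WT EB8 libraries (8.10 without them), so it was tested because it is high there. The call was lost when any of 7 of the 8 libraries was left out. With 2 libraries a group, no group could be searched for a library that stands apart.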

How the results depend on the processing

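None of the 26 log2 changes of the 8 tested genes that were recomputed changed sign. Over the alternatives other than leaving out a library, 243 values stayed on the same side of the threshold, 11 came to pass it and 15 no longer did. When a library was left out 114 stayed and 18 no longer passed. At EB8, KO against WT, leaving out a library gave 3 to 5 called factors. From EB4 to EB5 in WT the count of 2 became 1 with a pseudocount of 0.1, no filter, quantile normalisation, upper-quartile rescaling, only these groups in the fit, the replicate block and edgeR, and 1 to 2 when a library was left out. In KO the count of 1 became 0 in the fit of only these groups and 2 with DESeq2 and with the replicate block within genotype, which called Lhx1 (adjusted p 0.0369). In WT that block gave 3, adding Pou4f1. From EB5 to EB8 in WT the count of 3 became 5 with DESeq2 and ranged from 2 to 3 when a library was left out. It was 2 at a mean of at least 50, which Lhx3 does not reach, and 4 with the replicate block within genotype, which adds Tlx3 (adjusted p 0.0225). With no filter it was 3 higher and 1 lower, Lhx9. For the difference between genotypes at that step, the count of 1 became 0 with a pseudocount of 0.1, no filter, a mean of at least 50, quantile normalisation and the fit of only these groups, 4 with DESeq2, and 0 to 1 when a library was left out.

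The labels do not tie a number to a line across genotypes. With the replicate block, 5 factors were called at EB8 as before, and 4081 of all genes in place of 3697. Exchanging the KO numbers, an alternative chosen after seeing the data because the correlation between WT and KO was negative, gave 5 factors and 4154 genes at EB8, and 0 factors and 1000 genes at EB5. Over all genes DESeq2 called 476 at ES in place of 0, 2077 at EB4 in place of 986, 1719 at EB5 in place of 700, and 661 from EB5 to EB8 in KO in place of 119. A fit of only the compared groups called 0 at EB4, 72 at EB5 and 1 from EB5 to EB8 in KO. The cause of these shifts was not tested. Lhx9 had at most 27 reads in a library, which limits what could be tested for it.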

Other observations

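Among 7 markers of neural crest and sensory neurons, all tested, Tfap2b and Foxd3 were lower in KO EB8 (log2 changes -4.24 and -3.09, limma adjusted p 0.0178 and 0.00627) and Sox10, a factor of migrating crest cells and glia, was higher (3.08, limma adjusted p 0.0122). Of all tested genes, 12.5% were called lower and 10.4% higher. The sensory neuron factors Pou4f1 (log2 change 0.55) and Isl1 (-1.94) were not called by limma in the same comparison. They were not alike, as both KO libraries were below both WT libraries for Isl1 only, and DESeq2 called Isl1 (adjusted p 0.0314). Of 7 feeder fibroblast markers, all tested, none was called at EB8, and their sum was 3198 to 3816 normalised counts in WT and 1567 to 4459 in KO. At the earlier stages both KO sums were below both WT sums. They were 1434 to 2859 in WT ES and 365 to 748 in KO ES. At EB4 they were 1230 to 1500 and 576 to 633, and at EB5 2051 to 2548 and 1351 to 1409. The difference in these sums was not tested.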
